A study of Mus musculus with 25 samples.

Results

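The cell surface carriers described here are 8 amino acid transporters, *Slc7a5*, *Slc3a2*, *Slc1a5*, *Slc7a1*, *Slc7a6*, *Slc7a11*, *Slc38a1* and *Slc38a2*, together with the transferrin receptor *Tfrc*. They were taken by symbol from a table of 48795 mouse genes; all 9 were found and all 9 were among the 14141 genes with a mean normalized count of at least 10 that were tested. RNA was measured in CD4-CD8- double negative (DN) thymocytes, sorted as Thy1.2+CD44- so as to hold stages DN3 and DN4, from thymi of 7-8 week old mice. Every mouse lacked *Rag1*, so that its DN3 cells cannot rearrange an antigen receptor, and carried CD2Cre, which acts in lymphoid cells. The control mice (HET) were Wnk1fl/+/CD2Cre/Rag1KO and so kept 1 intact allele of the kinase gene *Wnk1*, and the WNK1-deficient mice (KO) were Wnk1fl/fl/CD2Cre/Rag1KO. Mice received 150 µg of anti-CD3ε into the peritoneum, an antibody that stands in for the signal of the pre-T cell receptor, and thymocytes were taken 3, 24 and 48 hr later; uninjected mice gave the 0 hr groups. Each group held 3 mice except the WNK1-deficient group at 0 hr, which held 4, and the 25 libraries are numbered as separate mice.

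Amino acid transporters and the transferrin receptor supply growing cells. *Slc7a5* encodes the light chain LAT1, which exchanges large neutral amino acids such as leucine and is held at the plasma membrane by the heavy chain CD98, encoded by *Slc3a2*; the heavy chain also carries the light chains encoded by *Slc7a6* and *Slc7a11*. *Tfrc* encodes CD71, which takes up iron bound to transferrin, and its mRNA is kept stable when iron is short. In T lineage cells CD98 and CD71 are widely used as surface markers of activated, growing cells, including DN thymocytes that have passed the pre-T cell receptor checkpoint.

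The promoters of the 4 members that differed between the genotypes at some time are given first, as RefSeq gives them on GRCm38.p6, from 250 bases before to 50 after a transcription start and written 5′ to 3′ on the strand of the gene. Capitals mark matches to any of 3 motifs searched on both strands, which were the E-box CACGTG, the ATF4 and C/EBP composite site TGATGNAA and the antioxidant response element TGACNNNGC.
*Slc7a11*, chr3:50443564-50443863, minus strand: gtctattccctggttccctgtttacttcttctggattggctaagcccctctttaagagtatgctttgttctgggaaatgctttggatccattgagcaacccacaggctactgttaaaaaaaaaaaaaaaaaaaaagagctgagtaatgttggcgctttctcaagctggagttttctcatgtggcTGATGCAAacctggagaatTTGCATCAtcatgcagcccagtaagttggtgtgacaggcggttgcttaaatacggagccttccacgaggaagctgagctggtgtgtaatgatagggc
*Slc38a2*, chr15:96699679-96699978, minus strand: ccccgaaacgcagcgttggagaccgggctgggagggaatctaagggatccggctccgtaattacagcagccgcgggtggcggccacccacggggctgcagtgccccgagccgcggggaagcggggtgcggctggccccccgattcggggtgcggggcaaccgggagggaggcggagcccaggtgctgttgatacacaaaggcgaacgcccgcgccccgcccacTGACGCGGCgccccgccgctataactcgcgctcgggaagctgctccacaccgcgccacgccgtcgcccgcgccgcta
*Slc3a2*, chr19:8713848-8714147, minus strand: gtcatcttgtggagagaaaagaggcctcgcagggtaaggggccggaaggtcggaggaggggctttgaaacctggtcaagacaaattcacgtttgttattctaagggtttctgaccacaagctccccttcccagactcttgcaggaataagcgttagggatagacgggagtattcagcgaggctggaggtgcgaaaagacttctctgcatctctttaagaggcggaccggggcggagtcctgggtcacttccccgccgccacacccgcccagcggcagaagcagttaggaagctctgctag
*Tfrc*, chr16:32608646-32608945, plus strand: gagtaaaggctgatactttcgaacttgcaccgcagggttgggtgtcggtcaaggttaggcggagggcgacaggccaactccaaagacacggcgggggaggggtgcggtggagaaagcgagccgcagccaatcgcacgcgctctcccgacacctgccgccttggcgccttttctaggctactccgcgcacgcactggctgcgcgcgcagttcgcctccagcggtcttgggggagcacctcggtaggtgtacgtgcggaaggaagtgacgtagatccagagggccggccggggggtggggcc

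These starts lie at the 5′ end of the annotated gene for *Slc38a2* (chr15:96687392-96699728) and *Tfrc* (chr16:32608896-32632794), and inside the annotated span for *Slc7a11* (chr3:50364936-50499087) and *Slc3a2* (chr19:8706882-8723369). The *Slc7a11* window held the composite motif at 2 positions, 66 to 59 bases before the start on the strand of the gene and 47 to 40 bases before it on the other strand. At least 1 match to that motif was found in 3.97% of 32851 mouse promoter windows of the same 300 bases, and 2 or more matches in 0.07%. The *Slc38a2* window held 1 antioxidant response element, 27 to 19 bases before the start; that motif was present in 12.4% of all windows. Windows were held for 6 of the 9 members, and the antioxidant response element was also found in those of *Slc7a1* and *Slc7a6*. The E-box, present in 7.15% of all windows, was not among the letters of any window of a member. These are matches of letters and not measured binding.

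The 25 libraries held between 22.5 M and 57.3 M recovered reads, with a median of 36.6 M. *Wnk1* itself was lower in the WNK1-deficient libraries at every time, with log2 fold changes between -1.05 at 48 hr (adjusted p = 0.00555) and -0.83 at 0 hr (adjusted p = 0.01). The libraries of 0 and 48 hr had 10918 to 45584 normalized counts of *Xist*, the transcript of the inactive X chromosome, and those of 3 and 24 hr 0.0 to 13.8 with Y-linked transcripts instead, so comparisons of 3 or 24 hr with 0 hr cannot be told apart from sex, while 48 hr with 0 hr and 24 hr with 3 hr are matched for it. The sequencing lane named in the sample names was lane 1 for all control libraries at 0 hr and lane 2 for all WNK1-deficient libraries at 0 hr. Of the marker genes of 8 cell types, the 10 of DN thymocytes summed to at least 101534 normalized counts in every library, although *Ptcra* and *Rag2* were as low as 3.1 and 4.6 in single libraries. The 5 B cell markers, of which 1 passed the filter, summed to 2229 to 2607 normalized counts in control and 816.1 to 1163 in WNK1-deficient libraries at 0 hr. Sums over marker lists differed between the genotypes at 0 hr, with 10 of 10 DN markers summing to 491869 to 553022 normalized counts in control and 275207 to 331945 in WNK1-deficient libraries, and 5 of 5 natural killer and innate lymphocyte markers to 4985 to 6988 and 14649 to 25644, *Gzma* making up most of these sums and *Klrd1* being at 0 in each control library; the part of these cells in the differences at 0 hr was not tested. The third control library at 3 hr had 29262 normalized counts summed over the 5 markers of double positive thymocytes, against 594.6 and 1149 in the other control libraries and 444.4 to 645.5 in the WNK1-deficient ones. In bulk RNA, fewer cells of a type and less RNA per cell cannot be told apart.

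At 3 hr after anti-CD3ε the transporters rose together in control thymocytes, in which 8 of 9 members were higher than at 0 hr, with *Slc7a11* as the exception; 18.4% of all tested genes were called higher in that comparison. The log2 fold changes of these 8 ran from 0.79 for *Slc1a5* to 2.11 for *Slc7a1*, and the median over the 9 members was 1.64 against -0.03 over all tested genes. In WNK1-deficient thymocytes 6 of 9 members were higher at 3 hr than at 0 hr, beside 13.3% of tested genes, with a median over the members of 0.91 against -0.00277 over all tested genes. The 3 members that did not pass were *Slc38a2*, *Tfrc* and *Slc7a11*. All changes are differences of log2(normalized count + 1) fitted with limma, and a call is an adjusted p below 0.05.

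**Figure D1:**
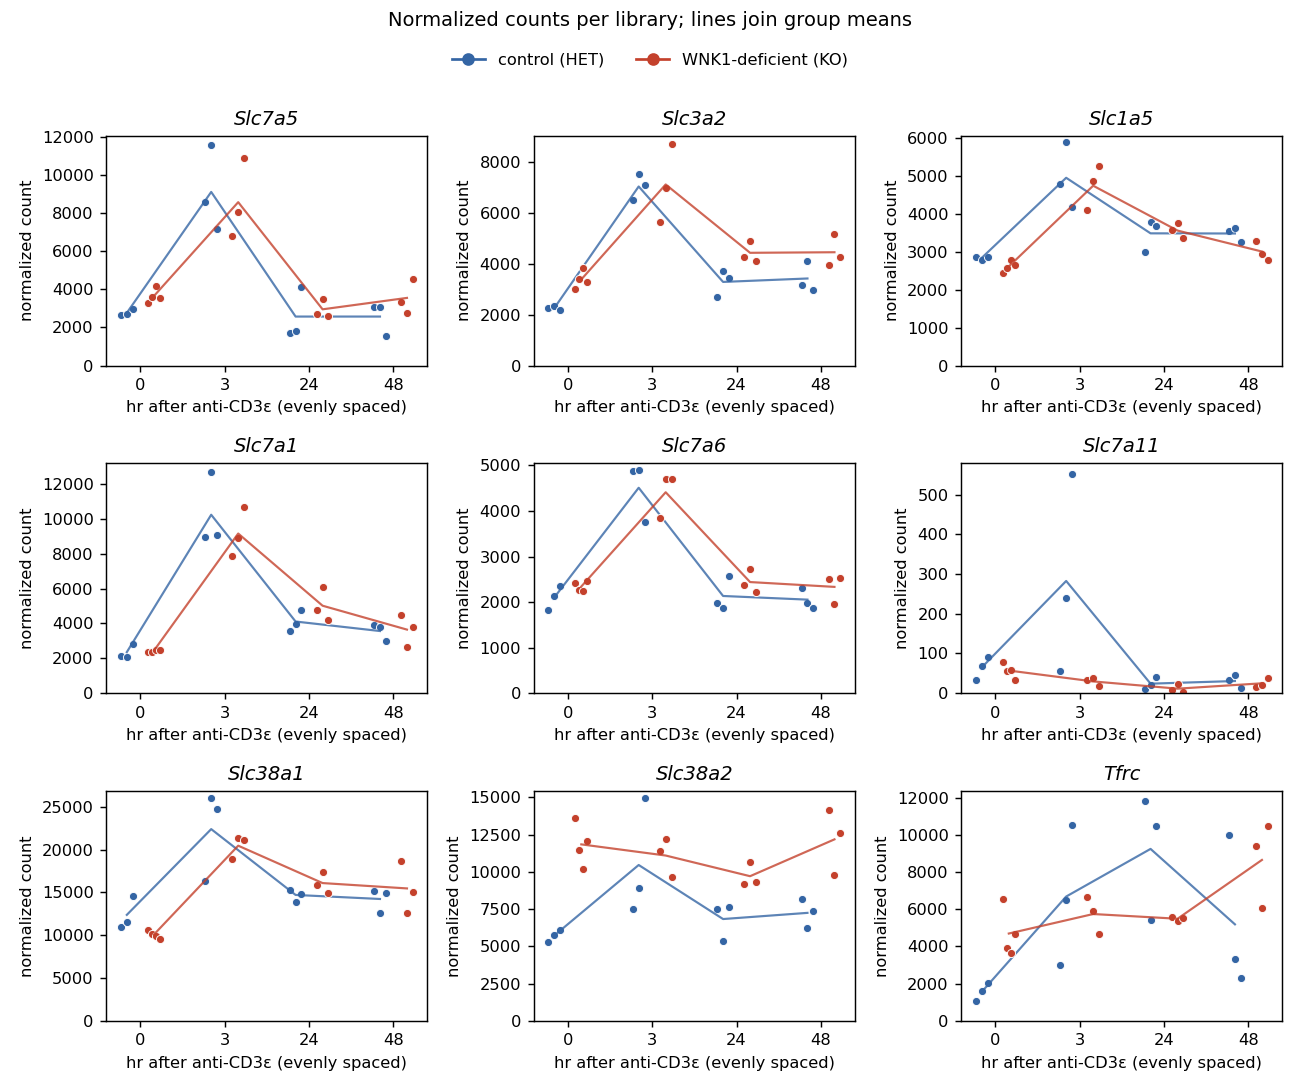
Normalized counts (y axis, from 0) of the 9 members in each library at 0, 3, 24 and 48 hr after anti-CD3ε (x axis, evenly spaced); points are libraries, blue for control and red for WNK1-deficient, and lines join group means. The group means of 6 members, *Slc7a5*, *Slc3a2*, *Slc1a5*, *Slc7a1*, *Slc7a6* and *Slc38a1*, peaked at 3 hr in both genotypes, *Slc38a2* started higher in WNK1-deficient libraries, and *Slc7a11* was above 200 normalized counts in 2 control libraries at 3 hr alone.

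The rise had mostly ended by 24 hr. Against 3 hr, 8 of 9 members were lower at 24 hr in control thymocytes, beside 22.3% of tested genes called lower, with log2 fold changes between -3.19 and -0.50, and *Tfrc* differed by 0.57 (adjusted p = 0.319). In WNK1-deficient thymocytes 5 of 9 were lower, beside 18.7% of tested genes, and the other 4 had log2 fold changes between -1.55 and -0.05. Against 0 hr, *Slc3a2*, *Slc7a1* and *Tfrc* were higher in control thymocytes at 24 hr and again at 48 hr, beside 33.9% and 42.4% of tested genes called in either direction. In WNK1-deficient thymocytes *Slc3a2*, *Slc1a5*, *Slc7a1* and *Slc38a1* were higher and *Slc7a11* lower at 24 hr, beside 30.4% of tested genes, and *Slc7a1* and *Slc38a1* were higher at 48 hr, beside 26.8%. The call of *Slc3a2* at 24 hr in WNK1-deficient thymocytes (0.39; adjusted p = 0.0497) was lost in 7 of 11 other fits and without any 1 library of these groups except the third of 0 hr, in the latter fits with values between 0.32 and 0.44, and that in control thymocytes was lost without the second library of 24 hr (0.43, adjusted p = 0.0592). The call of *Slc38a1* at 48 hr was lost without the first WNK1-deficient library of 48 hr (0.46, adjusted p = 0.0542). Of the falls from 3 to 24 hr, that of *Slc38a2* in control thymocytes (-0.57) was -0.28 without the third library of 3 hr (adjusted p = 0.223) and -0.40 without the second of 24 hr (adjusted p = 0.147), and that of *Slc1a5* in WNK1-deficient thymocytes (-0.41) was not called without the third library of 3 hr (-0.33, adjusted p = 0.0695) or of 24 hr (-0.37, adjusted p = 0.0544).

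Per kilobase of the longest protein-coding transcript, *Slc38a1* had the highest mean of the 9 in control thymocytes at every time, from 1597 ± 253 normalized counts per kilobase at 0 hr to 2890 ± 680 at 3 hr (SD, n = 3). At 3 hr *Slc7a5* with 2590 ± 638 and *Slc3a2* with 2504 ± 188 lay within that spread. At 24 hr *Slc38a1* had 1898 ± 92, and *Tfrc*, given below, lay within that spread too. In WNK1-deficient thymocytes *Slc38a2* was first at 0 hr with 2559.9 ± 308 normalized counts per kilobase (SD, n = 4), at 24 hr with 2098 ± 176 and at 48 hr with 2633 ± 480.4 (SD, n = 3); at 24 hr *Slc38a1*, next with 2077 ± 161, lay within that spread. *Slc7a11* had the lowest level in all 8 groups, between 1.24 ± 1.10 normalized counts per kilobase in WNK1-deficient cells at 24 hr and 30.6 ± 27.1 in control cells at 3 hr. *Tfrc* moved most in this order, from eighth place in control thymocytes at 0 hr with 318.5 ± 102 (SD, n = 3) normalized counts per kilobase to second place at 24 hr with 1891 ± 688.

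The LAT1 light chain and its heavy chain rose side by side. *Slc7a5* had 2639, 2683 and 2967 normalized counts in the control libraries at 0 hr and 8594, 11557 and 7162.5 at 3 hr, and its WNK1-deficient libraries had 3259, 3583, 4160.3 and 3558 at 0 hr and 6777, 8032 and 10894 at 3 hr. No library of 3 hr overlapped one of 0 hr in either genotype, and the log2 fold changes were 1.69 ± 0.29 (SE; adjusted p = 0.00017) in control and 1.21 ± 0.27 (adjusted p = 0.00322) in WNK1-deficient thymocytes. At 24 hr the control libraries had 1732, 1838 and 4141 normalized counts and at 48 hr 3068, 3086 and 1559, values on both sides of those at 0 hr. With all groups in the fit no difference between genotypes was called at any time, although at 0 hr the 4 WNK1-deficient libraries lay above the 3 control libraries (0.39 ± 0.27; adjusted p = 0.319). That difference was called with only the groups compared in the fit (adjusted p = 0.017) and was -0.59 with lane as a covariate (adjusted p = 0.318). The largest difference was 0.50 ± 0.29 on the log2 scale at 48 hr (adjusted p = 0.278), when 2753 to 4563 normalized counts in WNK1-deficient libraries overlapped 1559 to 3086 in control ones, and it was 0.17 without the third control library and 0.96 with lane as a covariate.

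*Slc3a2*, the CD98 heavy chain, was 1 of 3 members higher in WNK1-deficient than in control thymocytes before stimulation, beside 11% of tested genes called higher in that comparison. Its control libraries at 0 hr had 2272, 2332 and 2181 normalized counts, and its WNK1-deficient libraries had 3017, 3394, 3846 and 3296. All 4 WNK1-deficient libraries lay above all control libraries, with a log2 fold change of 0.58 ± 0.15 (SE; adjusted p = 0.00784). At 3 hr the groups met, with 6495, 7551 and 7085 normalized counts in control and 5658, 6995 and 8717 in WNK1-deficient libraries, a log2 difference of -0.00344 (adjusted p = 0.995). At 24 hr the control libraries had 2689, 3728 and 3454 normalized counts and the WNK1-deficient ones 4279.6, 4901 and 4126, again without overlap, and the log2 difference of 0.44 ± 0.16 did not pass the test (adjusted p = 0.0724). At 48 hr the difference was 0.39 ± 0.16 (adjusted p = 0.112). With lane as a covariate the difference at 0 hr was 0.30 ± 0.28 (adjusted p = 0.557); within lanes 3 and 4 at 24 hr it was 0.41 and 0.38 on the log2 scale, and within lane 1 at 48 hr 0.60, each from 3 libraries.

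The ratio of *Slc7a5* to *Slc3a2* per length is given as a description, and its means were lower at 24 and 48 hr than at 0 and 3 hr in both genotypes. It was 0.98 ± 0.09 (SD, n = 3) at 0 hr and 1.03 ± 0.21 at 3 hr in control thymocytes, and 0.62 ± 0.30 at 24 hr and 0.60 ± 0.18 at 48 hr. In WNK1-deficient thymocytes it was 0.86 ± 0.01 (SD, n = 4) at 0 hr, 0.96 ± 0.04 at 3 hr, 0.53 ± 0.04 at 24 hr and 0.65 ± 0.22 at 48 hr, when its libraries, from 0.43 to 0.86, reached those of 0 hr. The 4 WNK1-deficient libraries at 0 hr lay between 0.84 and 0.87, below the 0.92 of the lowest control library.

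The carriers of cationic amino acids were higher at 3 hr than at 0 hr in both genotypes. *Slc7a1*, which encodes the arginine transporter CAT1, had the largest rise of the 9 members in each genotype at 3 hr. Its control libraries went from 2147, 2079.9 and 2844 normalized counts at 0 hr to 8982, 12667 and 9071 at 3 hr, and its WNK1-deficient libraries from 2385, 2391, 2499 and 2462 to 7876, 8919.8 and 10691. All libraries of 3 hr lay far above all of 0 hr, with log2 fold changes of 2.11 ± 0.19 (SE; adjusted p = 6.46e-08) in control and 1.90 ± 0.18 (adjusted p = 1.91e-07) in WNK1-deficient thymocytes. The gene was also called higher than at 0 hr at 24 hr, by 0.81 and 1.03 on the log2 scale in control and WNK1-deficient thymocytes, and at 48 hr by 0.60 and 0.55. The call at 48 hr was lost in control thymocytes without the first or second library of 0 hr or the first of 48 hr (0.52 to 0.54; adjusted p between 0.0583 and 0.0673). In WNK1-deficient thymocytes it was lost without the first or second library of 0 hr or the third of 48 hr (0.50 to 0.54; adjusted p between 0.0517 and 0.0682) and without the first of 48 hr (0.38, adjusted p = 0.201). *Slc7a6*, the light chain y+LAT2, had 1823, 2133 and 2350.2 normalized counts at 0 hr and 4875, 4894.5 and 3759.8 at 3 hr in control libraries, a log2 fold change of 1.10 ± 0.15 (adjusted p = 1.01e-05). In WNK1-deficient libraries it went from 2409.5, 2269.7, 2234 and 2454 to 3841, 4694 and 4698, by 0.91 ± 0.14 (adjusted p = 8.39e-05). For both genes the libraries of the genotypes overlapped at every time, and the differences between genotypes lay between -0.15 and 0.28 on the log2 scale.

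Of the 3 glutamine carriers, *Slc38a2* was called between genotypes and *Slc1a5* and *Slc38a1* were not. *Slc1a5*, which encodes the glutamine exchanger ASCT2, had 2868, 2779 and 2865 normalized counts at 0 hr and 4782.5, 5883 and 4170.4 at 3 hr in control libraries, and 2439, 2562, 2785 and 2650.4 at 0 hr and 4091, 4870.0 and 5248.5 at 3 hr in WNK1-deficient ones. It rose by 0.79 ± 0.12 (SE; adjusted p = 5.84e-05) and 0.85 ± 0.12 (adjusted p = 2.11e-05) on the log2 scale. *Slc38a1*, the sodium-coupled glutamine carrier SNAT1, had 10940.5, 11587.5 and 14618 normalized counts in control libraries at 0 hr and 10634, 10194, 9889 and 9556.5 in WNK1-deficient ones, which were the lower group without overlap. That difference of -0.29 ± 0.15 on the log2 scale was not called (adjusted p = 0.17); 21.1% of tested genes had all WNK1-deficient libraries below all control libraries at 0 hr. At 3 hr *Slc38a1* had 16359, 26054 and 24801 normalized counts in control and 18886, 21369 and 21148.5 in WNK1-deficient libraries, rises of 0.84 ± 0.16 (adjusted p = 0.000404) and 1.02 ± 0.15 (adjusted p = 5.29e-05). It was still higher than at 0 hr in WNK1-deficient thymocytes at 24 hr, by 0.68, and at 48 hr, by 0.60.

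*Slc38a2*, which encodes the related carrier SNAT2, whose transcript is known to rise when amino acids are short, was the member with the smallest adjusted p between genotypes. At 0 hr the control libraries had 5310.3, 5789 and 6075 normalized counts and the WNK1-deficient libraries 13627, 11470.0, 10194.5 and 12077. The groups did not overlap and their log2 fold change was 1.04 ± 0.19 (SE; adjusted p = 0.000535). At 3 hr the control libraries had 7506.5, 8913 and 14954 normalized counts, the last from the library with the double positive markers, and the WNK1-deficient libraries had 11405, 12209 and 9666. There the difference was 0.14 ± 0.20 (adjusted p = 0.728), and control thymocytes had risen from 0 hr by 0.81 ± 0.20 (adjusted p = 0.00367) while the change in WNK1-deficient thymocytes was -0.09 ± 0.19 (adjusted p = 0.757). Without the third control library the rise was 0.52, and with lane as a covariate it was not called (0.64, adjusted p = 0.26).

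At 24 hr *Slc38a2* had 7508, 5356 and 7627 normalized counts in control and 9149.6, 10641 and 9329 in WNK1-deficient libraries, and at 48 hr 8149, 6203 and 7382 in control and 14135, 9762 and 12639 in WNK1-deficient libraries. The WNK1-deficient libraries lay above the control libraries without overlap at both times. The log2 difference of 0.52 ± 0.20 at 24 hr did not pass the test (adjusted p = 0.0948), and that of 0.74 ± 0.20 at 48 hr did (adjusted p = 0.0184; 6.13% of tested genes were called higher at 48 hr). Within lanes 3 and 4 at 24 hr the differences were 0.37 and 0.56, and within lane 1 at 48 hr 0.67, each from 3 libraries. The call at 48 hr was lost without the second control library (adjusted p = 0.0915), without the first WNK1-deficient library (adjusted p = 0.0829) and without the third (adjusted p = 0.0621), with differences between 0.63 and 0.71.

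*Slc7a11* encodes xCT, the light chain that brings in cystine for the synthesis of glutathione, and was by far the least abundant member. At 3 hr its control libraries had 56.9, 239.3 and 551.9 normalized counts and its WNK1-deficient libraries 32.5, 38.6 and 17.8, from 58, 242 and 527 and from 42, 27 and 24 recovered reads. The WNK1-deficient values were all below the lowest control value, and the control libraries differed 9.7-fold among themselves. The log2 fold change was -2.76 ± 0.72 (SE; adjusted p = 0.0181), and *Slc7a11* was the 1 member called at 3 hr, beside 3.43% of tested genes called lower. The call did not hold without the third control library, where the difference was -2.01 ± 0.74 (adjusted p = 0.111), without the second (-2.62; adjusted p = 0.0615) or without the third WNK1-deficient library (-2.44; adjusted p = 0.0785). Within lane 4 the single control library, which is the third and the one with the high double positive markers, had 551.9 normalized counts and the 3 WNK1-deficient libraries a mean of 29.6. The part of those cells in the difference was not tested.

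At 0 hr *Slc7a11* had 34, 68.6 and 92.0 normalized counts in control and 78.8, 56.1, 59.1 and 34.3 in WNK1-deficient libraries, which overlapped. The rise of control thymocytes from 0 to 3 hr was 1.70 ± 0.72 on the log2 scale (adjusted p = 0.0695), with an adjusted p of 0.0211 by edgeR and 0.00633 by DESeq2 on recovered reads, and 0.00677 by limma without the first control library of 3 hr. Leaving out 1 library at a time, that rise was as low as 0.95. Over all other fits it was as low as 0.65, with an adjusted p of up to 0.767. At 24 hr the gene had 9.9, 21.6 and 40.4 normalized counts in control and 7.4, 22.9 and 3.9 in WNK1-deficient libraries, the last from 3 reads. The fall from 3 to 24 hr in control thymocytes was -3.19 ± 0.72 on the log2 scale (adjusted p = 0.00143), and from 0 to 24 hr in WNK1-deficient thymocytes -2.48 ± 0.67 (adjusted p = 0.00735), the latter not called without the third WNK1-deficient library of 24 hr (-1.97; adjusted p = 0.0586). At 48 hr it had 33.6, 46.3 and 12 normalized counts in control and 15.5, 19.8 and 39.4 in WNK1-deficient libraries, which overlapped.

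*Atf4*, the transcription factor for which the composite motif above is named, also differed between genotypes at 3 hr. Its control libraries had 7618, 12160.0 and 10426 normalized counts and its WNK1-deficient libraries 5729.5, 6155 and 7554. All control libraries lay above all WNK1-deficient ones, beside 28.2% of tested genes without overlap in either direction. The log2 fold change was -0.62 ± 0.14 (SE; adjusted p = 0.0063), and neither at 0, 24 nor 48 hr was *Atf4* called. *Chac1*, an enzyme that breaks down glutathione, lies outside the rule for named genes and was chosen after its values were seen. It had 21.6, 256.1 and 28.3 normalized counts in the control libraries at 3 hr and 2.3, 1.4 and 1.5 in the WNK1-deficient ones, the latter from 3 reads or fewer per library (adjusted p = 0.000964). The third control library, highest for *Slc7a11*, was not the highest for *Atf4* or *Chac1*. In a list of 13 genes around MYC and ATF4, described below, 1 was higher, 2 were lower and 10 were not called at 3 hr. Any part of *Atf4* in the difference of *Slc7a11* was not tested.

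*Tfrc* was the most variable abundant member among libraries of 1 group and differed most between genotypes before stimulation. At 0 hr its control libraries had 1040.5, 1592 and 2040.3 normalized counts and its WNK1-deficient libraries 6530.1, 3903.5, 3667.5 and 4672. The groups did not overlap, and the log2 fold change was 1.61 ± 0.42 (SE; adjusted p = 0.0093). Without the first control library it was 1.34 ± 0.47 (adjusted p = 0.0697), and with lane as a covariate 0.27 ± 0.75 (adjusted p = 0.859). Of 5 erythroid markers, cells that also carry much transferrin receptor, 4 were found and 2 passed the filter, and their sum was 249.6 to 1120.2 normalized counts in control and 46.9 to 1892.6 in WNK1-deficient libraries at 0 hr; *Klf1* reached at most 10.8 normalized counts in any of the 25 libraries.

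After stimulation the *Tfrc* values of the genotypes overlapped at every time. At 3 hr the control libraries had 3009.5, 6506 and 10535 normalized counts, the last from the library with the double positive markers, and the WNK1-deficient libraries 6639, 5915 and 4673. At 24 hr they had 11829.8, 5445 and 10463 in control and 5589, 5346 and 5533 in WNK1-deficient cells, the latter within 2.3% of their mean (SD). At 48 hr they had 9981.5, 3303 and 2279 in control and 9421, 6068 and 10469 in WNK1-deficient cells.

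Control thymocytes therefore had more *Tfrc* than at 0 hr at each later time, by 1.98 ± 0.45 (SE; adjusted p = 0.00187), 2.55 ± 0.45 (adjusted p = 0.000187) and 1.49 ± 0.45 (adjusted p = 0.0108) on the log2 scale at 3, 24 and 48 hr. In WNK1-deficient thymocytes the same contrasts gave 0.31 ± 0.42 (adjusted p = 0.626), 0.26 ± 0.42 (adjusted p = 0.684) and 0.88 ± 0.42 (adjusted p = 0.127). With lane as a covariate none of the 3 rises in control thymocytes was called. They were then 1.41 (adjusted p = 0.22), 1.88 (adjusted p = 0.132) and 0.60 (adjusted p = 0.465) at 3, 24 and 48 hr. The call at 48 hr in control thymocytes was lost without the first library of 48 hr, the highest of its group (0.87; adjusted p = 0.103), and without the first of 0 hr (1.23; adjusted p = 0.0632). The difference between genotypes at 48 hr was 1.00 ± 0.45 (adjusted p = 0.152) and, without the first control library, 1.62 ± 0.41 (adjusted p = 0.0137). Within lane 1 at 48 hr the control library had 2279 normalized counts against a mean of 7744 in 2 WNK1-deficient libraries. Within lane 3 at 24 hr 1 control library had 10463 against a mean of 5467 in 2 WNK1-deficient libraries. Within lane 4 at 24 hr 2 control libraries had a mean of 8637 against 5533 in 1 WNK1-deficient library, but the second control library, at 5445, lay below it.

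**Figure D2:**
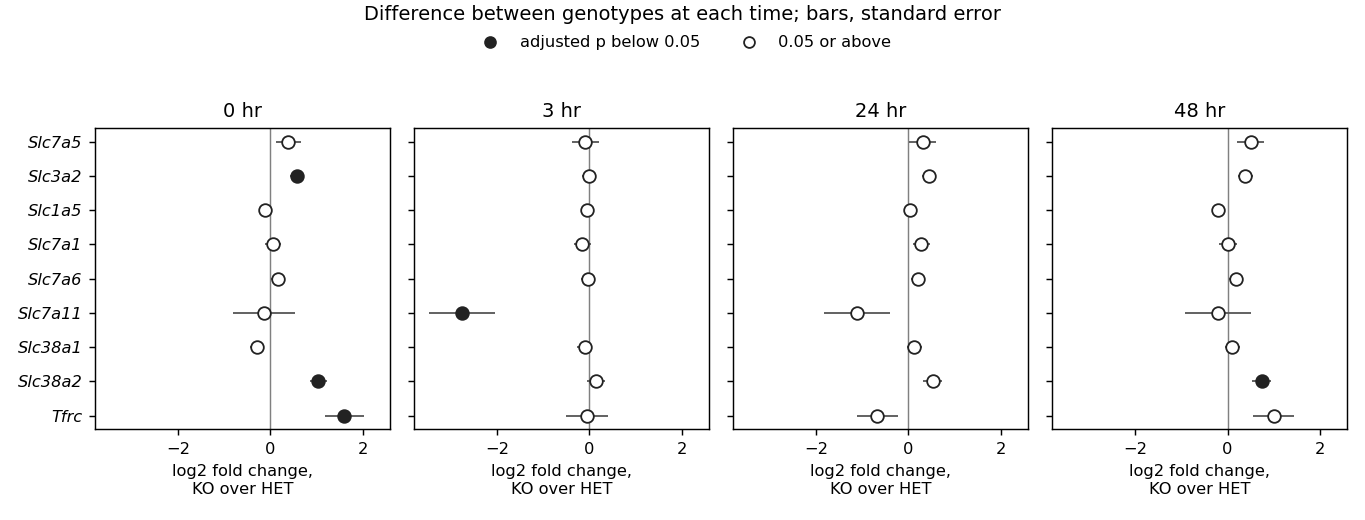
Log2 fold change of WNK1-deficient over control thymocytes (x axis) for the 9 members (y axis) at 0, 3, 24 and 48 hr; points are estimates from 3 or 4 libraries a group, bars their standard errors, and filled points have an adjusted p below 0.05. The filled points are *Slc3a2*, *Slc38a2* and *Tfrc* at 0 hr, *Slc7a11* at 3 hr and *Slc38a2* at 48 hr.

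Counted over the list, the genotypes differed in 3 of 9 members at 0 hr, all higher in WNK1-deficient thymocytes, in 1 at 3 hr, lower, in none at 24 hr and in 1 at 48 hr, higher. Over all tested genes 22.1%, 9.18%, 12.5% and 13.1% were called in either direction. At 24 hr limma called 0 of 9 members, of which 2, *Slc3a2* and *Slc38a2*, had an unadjusted p below 0.05, and edgeR and DESeq2 on recovered reads also called 0. The share of all tested genes with an unadjusted p below 0.05 was not counted. The members not called had log2 differences from -0.29 to 0.39 at 0 hr and from -0.15 to 0.14 at 3 hr. The median over the 9 members was 0.16, -0.06, 0.20 and 0.18 on the log2 scale at 0, 3, 24 and 48 hr, against medians over all tested genes between -0.02 and 0.00313. All WNK1-deficient libraries lay above all control libraries for 4 members at 0 hr and below for 1, beside 40.5% of tested genes without overlap in either direction, for 1 below at 3 hr beside 28.2%, for 2 members above at 24 hr beside 33.9%, and for 1 above at 48 hr beside 23.3%.

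Whether the response to anti-CD3ε itself differed between genotypes was tested by the interaction of genotype and time. At 3, 24 and 48 hr limma called 0 of 9 members, beside 0.0707%, 0.658% and 1.36% of tested genes. An unadjusted p below 0.05 was found for 4, 1 and 0 members, and the share of all tested genes at that threshold was not counted. At 3 hr those 4 were *Slc38a2* with -0.90 ± 0.28 (SE; adjusted p = 0.214), *Slc3a2* with -0.58 ± 0.22 (adjusted p = 0.288), *Tfrc* with -1.66 ± 0.62 (adjusted p = 0.288) and *Slc7a11* with -2.63 ± 0.99 (adjusted p = 0.293), all on the log2 scale and all negative, for a smaller rise or a fall in WNK1-deficient thymocytes. At 24 hr it was *Tfrc* with -2.28 ± 0.62 (adjusted p = 0.085), which DESeq2 on recovered reads called (-2.34; adjusted p = 0.00936) and edgeR did not. The value for *Slc38a2* at 3 hr was -1.11 (adjusted p = 0.0332) without the first control library of 3 hr, and that for *Tfrc* at 24 hr -2.63 (adjusted p = 0.033) without the second control library of 24 hr, and with lane as a covariate *Tfrc* at 24 hr had -0.85 (adjusted p = 0.847). Over all other fits the weakest values at 3 hr were -0.61 for *Slc38a2*, -0.25 for *Slc3a2*, -0.53 for *Tfrc* and -0.84 for *Slc7a11*. The 3 members that were higher in WNK1-deficient thymocytes at 0 hr are among these 4, and their differences at 0 hr enter the interaction.

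The lane of sequencing bears on these differences. At 0 hr lane and genotype coincided, and with lane as a covariate the estimate at that time rested on the control libraries of 48 hr, the group that was split over lanes 1 and 2. Of these the first and second were of lane 2 and the third alone of lane 1. They had 3068 and 3086 against 1559 normalized counts of *Slc7a5*, and 9981.5 and 3303 against 2279 of *Tfrc*. Lane and the spread between these mice therefore cannot be told apart in that fit. In that fit none of the 9 members was called between genotypes at any time. *Slc38a2* had 1.10 ± 0.37 at 0 hr (SE; adjusted p = 0.0908) and at 48 hr 0.67 ± 0.31 (adjusted p = 0.264), the latter being the same estimate as that within lane 1 above. *Slc7a11* at 3 hr had -2.60 ± 0.81 (adjusted p = 0.0594). Over all tested genes 665 were called at 0 hr in that fit, against 3124 without lane. Of the rises at 3 hr, 5 of 9 members in control and 4 of 9 in WNK1-deficient thymocytes were still called, beside 1330 and 148 of the 14141 tested genes called higher in that fit. Of the falls from 3 to 24 hr, whose libraries share lanes 3 and 4, 8 and 5 were still called, beside 2919 and 2775 tested genes called lower.

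**Figure D3:**
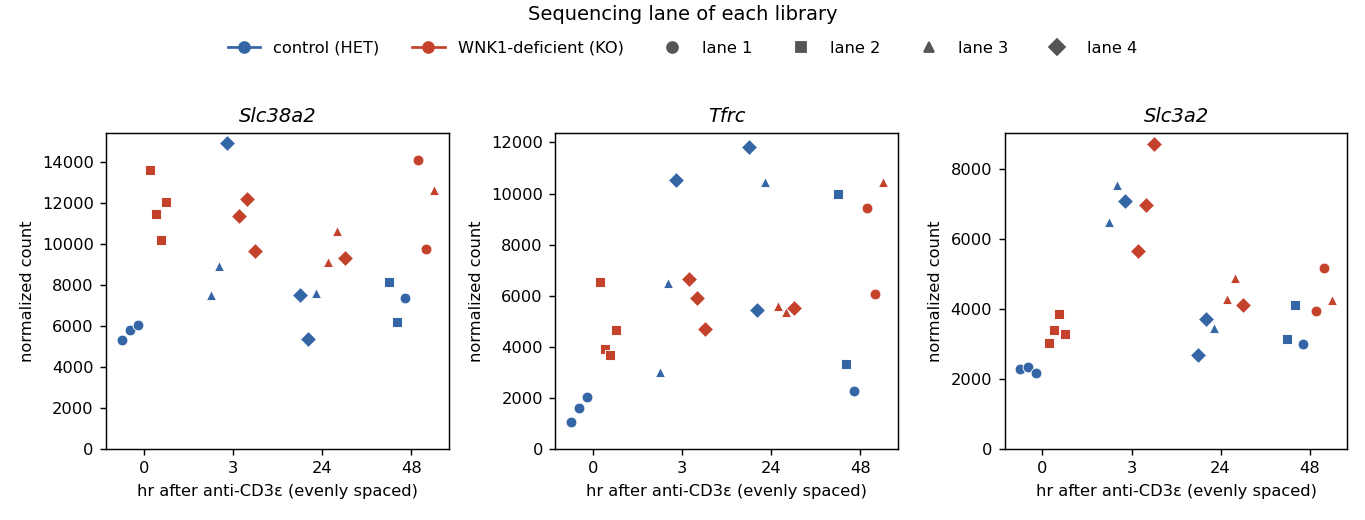
Normalized counts (y axis, from 0) of *Slc38a2*, *Tfrc* and *Slc3a2* in each library at 0, 3, 24 and 48 hr (x axis, evenly spaced), blue for control and red for WNK1-deficient; the shape of a point gives its sequencing lane. At 0 hr the control libraries are all of lane 1 (circles) and the WNK1-deficient libraries all of lane 2 (squares).

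Other genes of the same pathways were read from 6 lists. Their counts stand beside 22.1%, 9.18%, 12.5% and 13.1% of all tested genes called in either direction at 0, 3, 24 and 48 hr. Among 30 other amino acid transporters, 17 were tested, and at 0 hr the WNK1-deficient thymocytes had 3 of them higher and 2 lower. *Slc6a6*, the taurine transporter, was higher at all 4 times, with means of 3399 ± 604 and 4657 ± 83.8 normalized counts (SD, n = 3 and 4) at 0 hr and log2 fold changes between 0.47 (adjusted p = 0.00688) and 0.77 (adjusted p = 0.000389). The other 2 higher at 0 hr were *Slc1a4*, a carrier of small neutral amino acids, by 2.39 and *Slc6a9*, a glycine transporter, by 3.44 on the log2 scale; both were under the level set for named genes and are named because the count is small. *Slc38a6* was lower at 0 hr by -1.06 (adjusted p = 0.0167), as was *Slc7a4* by -1.49, which was also under that level. *Slc38a7*, a lysosomal glutamine carrier, was higher at 24 hr, at 1112 ± 39.6 against 573 ± 151 normalized counts (SD, n = 3; log2 fold change 0.98, adjusted p = 0.000663), and at 48 hr.

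Of 24 genes of iron uptake, storage and regulation, 23 were tested, and 2 were higher and none lower at 0 hr, beside 22.1% of all tested genes called. These were *Slc39a8*, a carrier of divalent metals, by 1.15 on the log2 scale (adjusted p = 0.0019) and *Ncoa4*, which delivers ferritin for breakdown, by 0.29 (adjusted p = 0.0474). At 24 hr 1 was higher and 1 lower, *Hfe*, under the level for named genes, by -1.74 (adjusted p = 0.00284). The higher was *Ncoa4*, at 9112 ± 533 against 5434 ± 465 normalized counts (SD, n = 3; adjusted p = 0.000174). At 3 hr the ferritin heavy chain *Fth1* was lower, at 22043 ± 2962 against 31321 ± 3649 normalized counts (SD, n = 3; adjusted p = 0.0247), *Tfr2*, the second transferrin receptor and under the level for named genes, was lower by -2.21, and *Aco1*, whose protein IRP1 binds iron-responsive mRNAs such as that of *Tfrc*, was higher by 0.50 (adjusted p = 0.0315). At 48 hr 4 were higher, *Slc39a8*, *Slc25a28*, *Ncoa4* and *Hmox1*, and the ferritin light chain *Ftl1* was lower, by -0.70 (adjusted p = 0.0387). The median over the 23 was -0.06, -0.15, 0.05 and 0.09 on the log2 scale at 0, 3, 24 and 48 hr.

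All 30 genes of amino acid sensing by mTORC1, the kinase complex that reads amino acid supply at the lysosome, were tested. At 0 hr as many were higher, 6, as were lower, 6, beside 22.1% of all tested genes called in either direction. The GTPase gene *Rragd* had the largest difference, with 67.5 ± 17.1 normalized counts in control and 363 ± 60.4 in WNK1-deficient libraries (SD, n = 3 and 4; log2 fold change 2.42, adjusted p = 0.000414), followed by the arginine sensor *Castor1* with 1.88 (adjusted p = 0.00433). The scaffold subunits *Lamtor2* and *Lamtor5* were lower by -0.55 (adjusted p = 0.00254) and -0.54 (adjusted p = 0.00407). At 3 hr 5 were higher and none lower, *Rragd* and *Castor1* again first, and at 24 and 48 hr 4 and 2 were higher and none lower, among them *Rragb* at 48 hr by 1.26 (adjusted p = 3.42e-05). The list's medians stayed between -0.04 and 0.03 on the log2 scale.

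The list around MYC and ATF4 held 13 genes, all tested. At 0 hr 3 were higher, among them *Gclm*, a subunit of the enzyme that begins glutathione synthesis, by 0.77 (adjusted p = 0.000514) and *Nfe2l2*, which encodes the oxidative stress factor NRF2, by 0.64 (adjusted p = 0.00642), with *Trib3*, a target of ATF4 under the level for named genes, by 1.80 (adjusted p = 0.0224), and none were lower. At 3 hr *Gclm* was higher and *Atf4* and *Chac1* were lower, and at 24 and 48 hr limma called none. *Myc* did not differ between genotypes by the test at any time, with log2 differences of -0.32, 0.43, -0.12 and 0.30 at 0, 3, 24 and 48 hr (adjusted p between 0.535 and 0.878), and it was lower at 24 hr than at 0 hr in control thymocytes by -1.82 (adjusted p = 0.000719) and in WNK1-deficient thymocytes by -1.61 (adjusted p = 0.00117).

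Glutathione and cystine genes, 13 with *Slc7a11* among them and 11 tested, went in both directions at 0 hr, 2 higher and 2 lower, beside 22.1% of all tested genes called. *Gclm* and *Gclc*, the 2 subunits of 1 enzyme, were the higher ones and *Gss* and *Gpx1* the lower. At 24 hr 3 were lower and none higher, among them *Gsr*, which regenerates reduced glutathione, with 3689.97 ± 1123 normalized counts in control and 1972 ± 161 in WNK1-deficient libraries (SD, n = 3; adjusted p = 0.00452), *Gpx4*, which reduces lipid peroxides, by -0.67 (adjusted p = 0.0208) and *Txnrd1* by -0.44 (adjusted p = 0.0142); the list's median then was -0.40. Of 14 genes of glutamine and arginine use 10 were tested. At 0 hr *Glul*, which makes glutamine, and *Sms* were higher by 0.56 (adjusted p = 0.00842) and 0.47 (adjusted p = 0.0237) and *Got1* lower by -0.93 (adjusted p = 0.00642), at 3 hr none of the 10 was called by limma, and at 24 hr *Glud1* was higher by 0.41 (adjusted p = 0.0146).

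**Figure D4:**
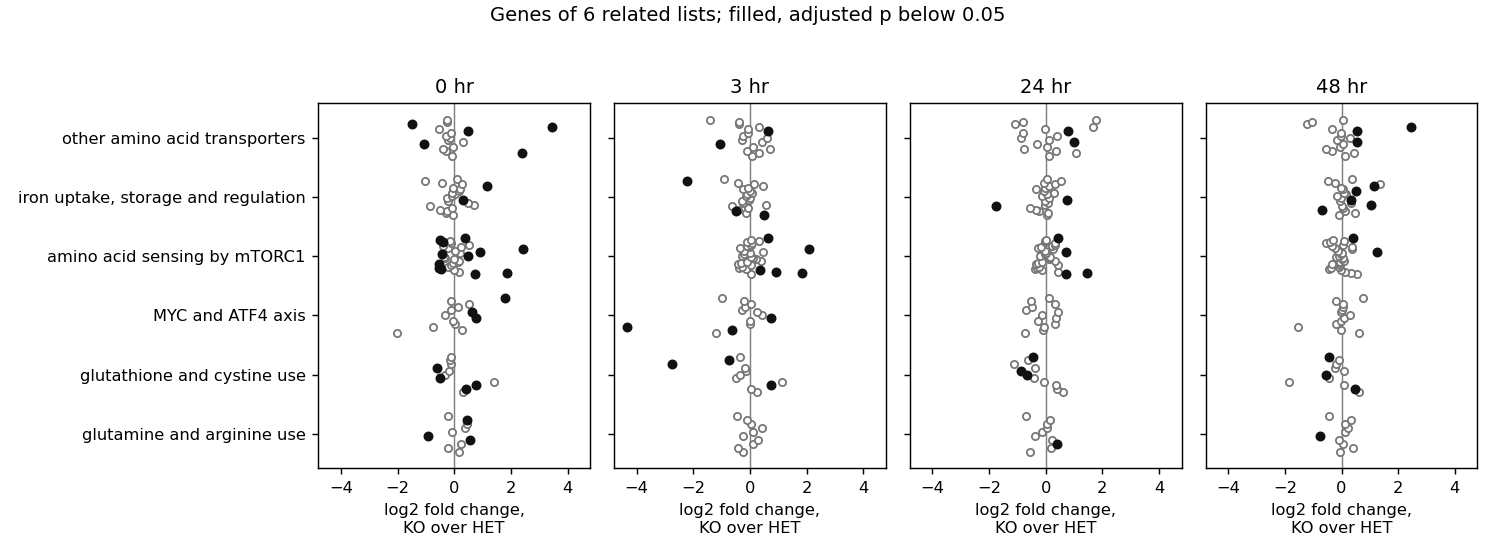
Log2 fold change of WNK1-deficient over control thymocytes (x axis) at 0, 3, 24 and 48 hr for the tested genes of 6 related lists (y axis); each point is 1 gene, filled where the adjusted p is below 0.05. Filled points stand on both sides of 0 in most lists at 0 hr, and the point furthest to the left at 3 hr is *Chac1*.

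In the time comparisons the 17 other amino acid transporters had a median of 0.25 on the log2 scale at 3 hr in control thymocytes, with 5 higher and 1 lower than at 0 hr, against the median of 1.64 over the 9 members, and 0.46 in WNK1-deficient thymocytes, with 5 higher. Over all tested genes 18.4% in control and 13.3% in WNK1-deficient thymocytes were called higher at 3 hr. Of the 23 iron genes 10 were lower and 1 higher at 48 hr than at 0 hr in control thymocytes, and 6 lower and 1 higher in WNK1-deficient thymocytes, with medians of -0.59 and -0.25, beside the 42.4% and 26.8% of all tested genes called in either direction in those comparisons. Of the 14141 tested genes 2948 and 1763 were called lower there. *Tfrc*, which is not in that list, was called higher at 48 hr than at 0 hr in control thymocytes (1.49, adjusted p = 0.0108).

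Across the 25 libraries the members formed a block of transporters with like patterns and a few that stood outside it. Pearson's r of log2(normalized count + 1) was 0.944 for *Slc7a5* with *Slc7a6*, 0.943 for *Slc1a5* with *Slc7a1*, 0.906 for *Slc7a1* with *Slc38a1* and 0.804 for *Slc7a5* with *Slc3a2*. It was 0.194 for *Slc7a5* with *Tfrc*, 0.01 for *Slc1a5* with *Slc38a2* and 0.158 for *Slc1a5* with *Slc7a11*. The same libraries stand behind all of these values and share their time, genotype, sex and lane, so they describe the pattern and carry no test.

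The genes with the patterns most like those of single members differed from member to member. For *Slc7a5* these were *Rpusd2* (r = 0.963), *Dnaja3* (r = 0.948) and *Polr1b* (r = 0.945), and for *Slc7a6* *Nop14* (r = 0.96), *Ltv1* (r = 0.955) and *Sdad1* (r = 0.952). *Slc7a1* was most like *Uap1* (r = 0.955), *Slc1a5* most like *Nfatc1* (r = 0.931), *Slc38a1* most like *Stt3a* (r = 0.918) and *Slc3a2* most like *Trib1* (r = 0.943). *Slc38a2* was most like *Adam9* (r = 0.937), and *Tfrc* and *Slc7a11* had the lowest best matches, *Lin54* (r = 0.875) and *Syt14* (r = 0.853), all over 25 libraries.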

How the data were processed

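Libraries of polyadenylated RNA from 25 mice were read once in stranded 75 base single-end runs. The deposited values are signal in the form of normalized counts: per the submitters' processing notes the authors used Trimmomatic 0.36, STAR 2.5.2a, RSEM 1.2.31 and DESeq2 1.18.1 with GRCm38, dividing the gene counts of a library by its size factor. Whole reads were recovered in all 25 libraries (within 0.001 of a whole number), although in 2 the step lay too near 1 to be checked, and gave depths of 22.5 to 57.3 M reads. A table of 14141 genes with a mean of at least 10 was fitted with limma 3.58.1 on log2(value + 1) in R 4.3.3, with 1 mean for each of 8 groups and a mean-expression trend, and Benjamini-Hochberg adjustment within each of 15 comparisons at 0.05. The paper's methods use DESeq2, which here, like edgeR, needs counts and was run as an alternative on the recovered reads (edgeR 4.0.16, DESeq2 1.42.0). Alternatives also covered pseudocounts of 0.5 and 5, all genes without the filter, 2 other scalings, lane, a replicate block, only the groups compared and each library left out; leaving out 3 libraries together was added after seeing the data. edgeR called 3073, 1339, 1719 and 1763 genes between genotypes at 0, 3, 24 and 48 hr, against 3124, 1298, 1765 and 1850 by limma. The fit was tested on simulated data. Named genes were the members, list genes called between genotypes with a mean of at least 100 (up to 2 in each direction per list and time), the 3 most like genes per member, and *Myc*, *Atf4* and *Wnk1*. Single values are given where a result was called in some fit or had a log2 fold change of at least 0.4, and otherwise mainly ranges. Members and lists were chosen with earlier results of these data known. Lengths came from GENCODE M1 transcripts and promoters from RefSeq. Values of some single marker genes are not reported here. Precision is limited by the 3 or 4 mice a group.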

Additional observations from a re-analysis of the deposited data

How the results depend on the processing

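Depth limits *Slc7a11*, which had 3 to 15 reads a library in WNK1-deficient cells at 24 hr, and the spread between 3 or 4 mice limits every comparison. Of the log2 fold changes of members under the other settings fixed with the design, apart from leaving out a library,, 698 kept direction and call, 33 lost the call, 14 gained it and 5 changed sign; the causes were not tested. The 5, all with lane as a covariate, were *Slc7a5* between genotypes at 0 hr (-0.59) and in its interaction at 3 hr (0.93), *Slc7a11* at 48 hr against 0 hr in WNK1-deficient cells (0.049) and in its interaction at 24 hr (0.57), and *Tfrc* in its interaction at 48 hr (1.46). With lane, members called between genotypes numbered 0, 0 and 0 at 0, 3 and 48 hr, and against 0 hr 5, 0 and 1 at 3, 24 and 48 hr in control (the last was *Slc7a5*, lower by -0.82, so that none of the 3 higher calls at 48 hr held) and 1 and 0 at 24 and 48 hr in WNK1-deficient cells. Of the 14141 tested genes, the fit with lane called 665, 1100 and 542 in the same comparisons between genotypes. Against 0 hr it called 2573, 2134 and 5335 in control and 1254 and 899 in WNK1-deficient cells. The members' medians with lane were -0.18 and 0.51 between genotypes at 0 and 48 hr, 1.01 at 3 hr in control, 1.24, 0.59 and 0.50 at 3, 24 and 48 hr in WNK1-deficient cells, and 0.057, 0.23 and 0.29 for the interactions. With only the groups compared, 0 members were called between genotypes at 3 hr and 0 at 48 hr, 5 from 3 to 24 hr in control and 1 in the interaction at 24 hr, where DESeq2 also called 1. Between genotypes at 24 hr 1 member was called with every library scaled to the same total, 1 with a replicate block (*Slc3a2*, adjusted p = 0.0421) and 1 without the 3 libraries that stand apart, an alternative chosen after seeing the data (the third control libraries of 3 and 24 hr and the third WNK1-deficient library of 48 hr). Without those 3, 0 members were called between genotypes at 3 hr and 1 at 48 hr against 0 hr in WNK1-deficient cells, with medians of 1.22 at 3 hr in control and 0.18 for the interaction at 24 hr. Replicate numbers were taken as labels without pairing. Deviations of same-numbered libraries had a median r of -0.019 (84 pairs, from -0.273 to 0.378), which cannot exclude pairing of some libraries. The replicate block changed no other count of members called, although at 48 hr against 0 hr in WNK1-deficient cells *Slc7a1* lost its call (adjusted p = 0.0602) and *Slc3a2* gained one (adjusted p = 0.0493). Leaving out 1 library at a time gave 2 to 3, 0 to 1, 0 to 1 and 0 to 2 members called between genotypes at 0, 3, 24 and 48 hr. It gave 8 to 9, 2 to 4 and 1 to 3 against 0 hr in control, 6 to 6, 3 to 5 and 0 to 3 in WNK1-deficient cells, 7 to 8 and 4 to 6 from 3 to 24 hr, and 0 to 2, 0 to 1 and 0 to 0 for the interactions. Medians then ran from 1.22 to 1.69 at 3 hr in control, from -0.67 to -0.30 for the interaction at 3 hr and from -0.28 to 0.18 at 24 hr. In those fits 2 values of a member changed sign, *Slc7a5* at 48 hr against 0 hr in control, from -0.34 to 0.16 (without the third library of 48 hr), and *Tfrc* in its interaction at 48 hr, from -1.05 to 0.012 (without the first control library of 48 hr).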
